A study of Mus musculus with 30 samples.

Results

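The genes described here are 10 established transcriptional targets of p53: Phlda3, Cdkn1a, Mdm2, Aen, Eda2r, Ccng1, Bax, Trp53inp1, Bbc3 and Zmat3. They were chosen by gene symbol from the 52550 genes of the count table, and all 10 are among the 15587 genes with enough reads to be tested. Phlda3, Aen and Eda2r had been noted as higher in young heterozygotes, so the 3-month values are given as a description, without a test. RNA was measured in cardiac myocytes of Myh6-Cre:DspW/F mice, called heterozygotes here, and of wild-type mice. The groups are heterozygotes and wild type at 3 months with regular activity, and heterozygotes and wild type at 6 months with regular activity. The others are heterozygotes and wild type at 6 months with endurance treadmill exercise, for which the design text gives 3 months. Each of the 6 groups holds 5 libraries. The Myh6 promoter restricts Cre to cardiac myocytes, so deletion of the floxed allele of Dsp, which encodes desmoplakin, a protein that anchors intermediate filaments at desmosomes, is aimed at these cells. The labels do not say whether wild-type mice carry Cre, so effects of Cre and of the Dsp allele cannot be told apart. They also do not say that replicates are separate animals, so p-values measure the spread between libraries, which may be partly technical.

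The transcription factor p53 is held at a low level by the ubiquitin ligase Mdm2, and DNA damage and other stresses release it. Its targets then include genes that halt the cell cycle, genes that start apoptosis, and Mdm2 itself, which closes a feedback loop. Cardiac myocytes of adult mice divide rarely, and in the heart p53 is known for its part in apoptosis, metabolism and the response to overload.

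Promoter sequences are shown for the members on which the results turn. Phlda3 had the largest fold difference between genotypes, and Mdm2 and Ccng1 passed the test with exercise. Cdkn1a holds a pair of p53 consensus matches close to an annotated start that lies upstream of another. Each sequence is the stretch of 250 bases before an annotated start, from RefSeq promoters of build GRCm38.p6, written 5′ to 3′ on the strand of the gene. Capitals mark exact matches to the p53 consensus decamer, of which p53 binds 2 in tandem.
Phlda3, chr1:135765835-135766084, plus strand: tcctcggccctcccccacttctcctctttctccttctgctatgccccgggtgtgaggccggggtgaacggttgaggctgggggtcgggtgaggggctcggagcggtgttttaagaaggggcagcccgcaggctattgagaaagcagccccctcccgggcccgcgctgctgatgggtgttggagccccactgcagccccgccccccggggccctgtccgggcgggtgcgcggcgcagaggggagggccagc
Cdkn1a, chr17:29090729-29090978, plus strand: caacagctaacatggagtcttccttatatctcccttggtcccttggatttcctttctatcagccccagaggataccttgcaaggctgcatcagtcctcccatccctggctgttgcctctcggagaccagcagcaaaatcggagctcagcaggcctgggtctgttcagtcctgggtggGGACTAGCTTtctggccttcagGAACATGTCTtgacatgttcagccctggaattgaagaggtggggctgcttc
Mdm2, chr10:117710759-117711008, minus strand: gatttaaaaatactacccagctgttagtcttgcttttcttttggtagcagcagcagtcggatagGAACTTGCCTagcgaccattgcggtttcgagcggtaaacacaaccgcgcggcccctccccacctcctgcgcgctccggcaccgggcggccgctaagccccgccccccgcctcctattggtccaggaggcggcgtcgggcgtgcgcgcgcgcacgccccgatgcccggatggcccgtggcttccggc
Ccng1, chr11:40755287-40755536, minus strand: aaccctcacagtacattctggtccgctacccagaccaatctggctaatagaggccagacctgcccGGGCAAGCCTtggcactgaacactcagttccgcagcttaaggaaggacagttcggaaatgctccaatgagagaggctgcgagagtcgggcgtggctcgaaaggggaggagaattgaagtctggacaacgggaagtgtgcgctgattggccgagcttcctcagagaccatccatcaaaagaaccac

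Of the 10 members, 8 had a promoter entry, each covering 250 bases before and 50 after a start. A decamer match was found for 5 of them, against 9.55% of all 27025 genes with an entry, and the decamer reads the same on both strands, so 1 search covered both. The first bases of the Cdkn1a matches lie 73 and 51 bases before 1 annotated start, and the entry of a start farther downstream had no match. For Mdm2 the first base of the match lies 186 bases before the start, for Ccng1 185 bases and for Bax 201 bases. The match of Aen lies 121 bases before one annotated start and 10 bases after another. Cdkn1a was the only member with 2 decamers separated by 0 to 13 bases, an arrangement present in 0.074% of genes. Phlda3, Eda2r and Bbc3 had no complete match in these windows, and Trp53inp1 and Zmat3 had no entry. The Phlda3 window ended, after the start, in gaacatgt, which fits the first part of the decamer. A match across that edge could not be scored. A match is a string of letters and not a measured binding site. The best known p53 element of Mdm2, in its first intron, lies outside these windows.

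The libraries held 11232143 to 23710331 counts. The 12 myocyte markers were all present in every group and summed to between 77985 and 123928 CPM (counts per 10⁶ on TMM-scaled library sizes). Spike-in rows held counts for 3 controls in every 3-month library, for 11 to 18 in the regular-activity 6-month libraries and for 0 in the exercised ones, so the library sets follow age and exercise and cannot be told apart from them. Mitochondrial transcripts took 22.0% to 38.1% of counts in exercised heterozygotes and 20.8% to 46.9% in exercised wild type, against 11.7% to 26.7% and 13.3% to 17.6% in the same genotypes with regular activity. Dsp was lower in heterozygotes in all 3 comparisons, with a log2 fold change of -0.50 at 3 months, -0.33 at 6 months with regular activity (edgeR adjusted p = 0.657) and -0.88 with exercise (edgeR adjusted p = 0.0287). The library labelled heterozygote 3 at 3 months had 1126 CPM of Dsp, against 573.0 to 740.7 in the other heterozygotes of that age and 752.3 to 1299 in wild type. Wild type 4 at 3 months and wild types 2 and 5 at 6 months held both Xist (66.8, 129.2 and 134.9 CPM) and Y-linked transcripts (5.30, 2.24 and 2.66 CPM), whereas no other library with Xist above 60 CPM had more than 0.266 CPM of Y-linked transcripts. Exercised heterozygote 4 and exercised wild type 5 were the only libraries of their groups with Xist above 60 CPM, at 222.7 and 200.9 CPM. With regular activity at 6 months, Xist was above 60 CPM in heterozygotes 2 and 4 and wild types 2 and 5.

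Levels per kilobase of exon differed widely between the members. Over all 30 libraries Ccng1, a cyclin G that recruits a phosphatase to Mdm2, averaged 363 ± 83.7 RPKM (CPM per kilobase of exon; SD, n = 30). Mdm2 followed at 10.2 ± 1.85 RPKM and Bax, the pore-forming protein of the mitochondrial apoptosis pathway, at 7.86 ± 1.41 RPKM. Aen, an exonuclease induced in apoptosis, averaged 4.53 ± 0.833 RPKM and Phlda3, a pleckstrin homology protein that competes with Akt for membrane lipids, 3.93 ± 3.01 RPKM. Trp53inp1, a stress protein that cooperates with p53, had 2.75 ± 1.27 RPKM and Cdkn1a, which encodes the cyclin-dependent kinase inhibitor p21, 2.73 ± 2.35 RPKM. The last 3 were Bbc3, which encodes the BH3-only apoptosis activator Puma, at 1.05 ± 0.423 RPKM, Zmat3, an RNA-binding zinc finger protein, at 0.555 ± 0.166 RPKM, and Eda2r, the ectodysplasin A2 receptor of the TNF receptor family, at 0.496 ± 0.240 RPKM. Ccng1 did not overlap any other member, from 235 RPKM in its lowest library to 543 RPKM in its highest. Each of the other neighbours in this order overlapped in range. Phlda3 ranked 4 to 5 in the 3 heterozygote groups and 5 to 7 in the 3 wild-type groups, and Ccng1 ranked 1 in all 6. Cdkn1a varied most between libraries, with a highest value 36.9 times its lowest, followed by Phlda3 at 18.5 times, while Mdm2 varied 2.08-fold, Bax 2.13-fold and Aen 2.22-fold.

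**Figure D1:**
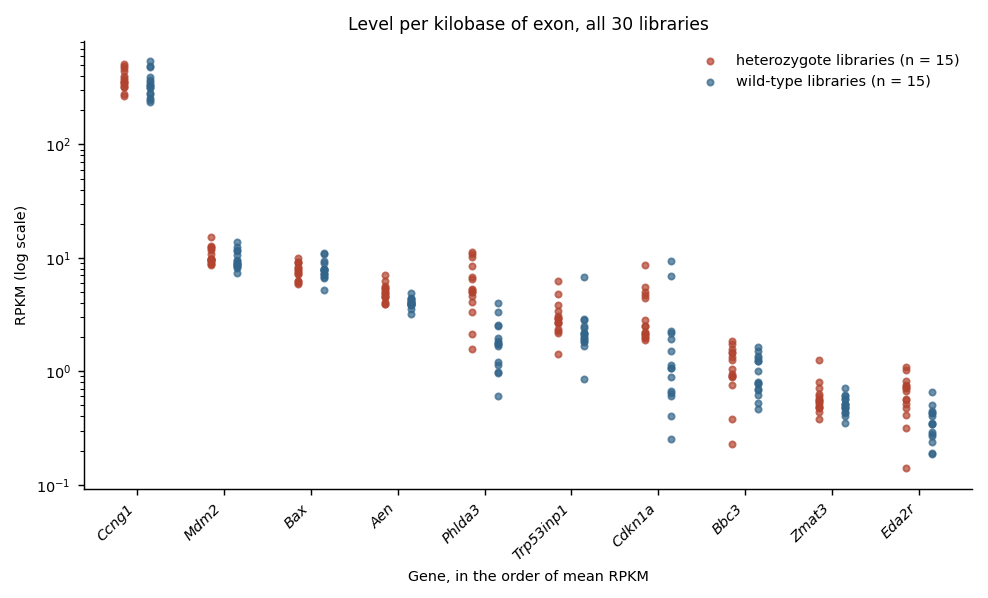
RPKM on a log axis for the 10 members in the order of their mean, with heterozygote libraries left of wild-type libraries (points, 15 libraries each). Ccng1 lies apart at 235 to 543 RPKM. The heterozygote and wild-type points of Phlda3, Cdkn1a and Eda2r are shifted most against each other. These points pool both ages and both activities. They include the young heterozygotes in which Phlda3 and Eda2r were noted as higher, so that choice partly set the shift of these genes.

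Positions are on GRCm38. Phlda3 lies on chromosome 1 (135766119 to 135769136, plus strand), Cdkn1a on chromosome 17 (29090976 to 29100727, plus), Mdm2 on chromosome 10 (117688875 to 117710758, minus) and Eda2r on chromosome X (97333840 to 97377216, minus). Aen (78895854 to 78911209, plus), Bax (45461697 to 45466898, minus) and Bbc3 (16308393 to 16318205, plus) lie on chromosome 7. Ccng1 lies on chromosome 11 (40748552 to 40755311, minus), Trp53inp1 on chromosome 4 (11156431 to 11174379, plus) and Zmat3 on chromosome 3 (32334792 to 32366014, minus). All are protein-coding genes and their values are sums over exons. Exons of Bax overlap those of Gm45808 on the same strand, so counts of Bax may be shared or lost. Exons of Cdkn1a overlap AC167363.2 on the opposite strand, which is not among the counted genes. If strand was not used in counting, counts of Cdkn1a may include its reads.

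At 3 months, where members were noted, Phlda3 had the largest difference. It had 10.5, 17.6, 2.46, 16.7 and 7.76 CPM in heterozygotes 1 to 5, against 1.88, 1.53, 2.75, 1.51 and 3.08 CPM in wild types 1 to 5. Of the heterozygotes, 4 lay above every wild type, and the library labelled heterozygote 3 lay among the wild types, as it did for Dsp. The difference was a log2 fold change of 2.35 (SE 0.453), and it ran from 2.12 without heterozygote 2 to 2.61 without the library labelled heterozygote 3.

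Eda2r, which can activate NF-kappa B and JNK signalling, followed with 6.46, 5.99, 0.819, 3.30 and 3.34 CPM in heterozygotes, against 2.02, 1.41, 1.66, 3.85 and 1.11 CPM in wild type. The groups overlapped through the library labelled heterozygote 3, the lowest of all 10, and wild type 4, which lay above heterozygotes 4 and 5. Its log2 fold change was 0.99 (SE 0.383), and 1.25 without the library labelled heterozygote 3; with each library left out in turn it ran from 0.73 (without heterozygote 1) to 1.36 (without wild type 4). Aen had 31.5, 32.5, 27.9, 41.3 and 30.03 CPM in heterozygotes and 25.0, 28.3, 22.5, 20.4 and 23.5 CPM in wild type, with a log2 fold change of 0.45 (SE 0.124) and an overlap by 1 wild type.

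The other members did not share this size of difference. Mdm2 had a log2 fold change of 0.19 (SE 0.110), Ccng1 0.22 (SE 0.148), Trp53inp1 0.30 (SE 0.365) and Bbc3 0.29 (SE 0.374). Bax stood at -0.34 (SE 0.146), Zmat3 at -0.049 (SE 0.204) and Cdkn1a at -0.026 (SE 0.754). In all, 7 of the 10 were higher, with a median of 0.25 beside -0.0019 over all tested genes. Phlda3, Aen and Eda2r, noted as higher in these same libraries, are among the 7, so that choice partly set this count and median. For 0 of the 10 were the groups free of overlap, a pattern that 0.642% of all genes showed in the direction of higher levels. Cdkn1a turned on 1 library: it had 7.65, 7.86, 7.18, 10.1 and 15.6 CPM in heterozygotes, against 2.30, 6.88, 33.4, 2.14 and 4.06 CPM in wild type. Without wild type 3 all heterozygotes lay above all wild types, and the log2 fold change was 1.32, while without wild type 1 it was -0.29. Wild type 3 also had the highest Trp53inp1 of the series, 44.0 CPM, and without it the log2 fold change of Trp53inp1 was 0.95, while without heterozygote 5 it was -0.030. Of cell type markers at 3 months, 0 of 10 endothelial markers were higher (median log2 fold change -0.53), with sums of 284 to 314 CPM in heterozygotes and 302 to 621 CPM in wild type. Of fibroblast markers 1 of 10 was higher, with sums of 133 to 227 CPM in heterozygotes and 166 to 237 CPM in wild type, and of macrophage markers 3 of 9, with sums of 15.4 to 29.9 CPM in heterozygotes and 17.3 to 34.9 CPM in wild type. Of erythroid markers 0 of 5 were higher. The part of other cells in the 3-month values was not tested.

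**Figure D2:**
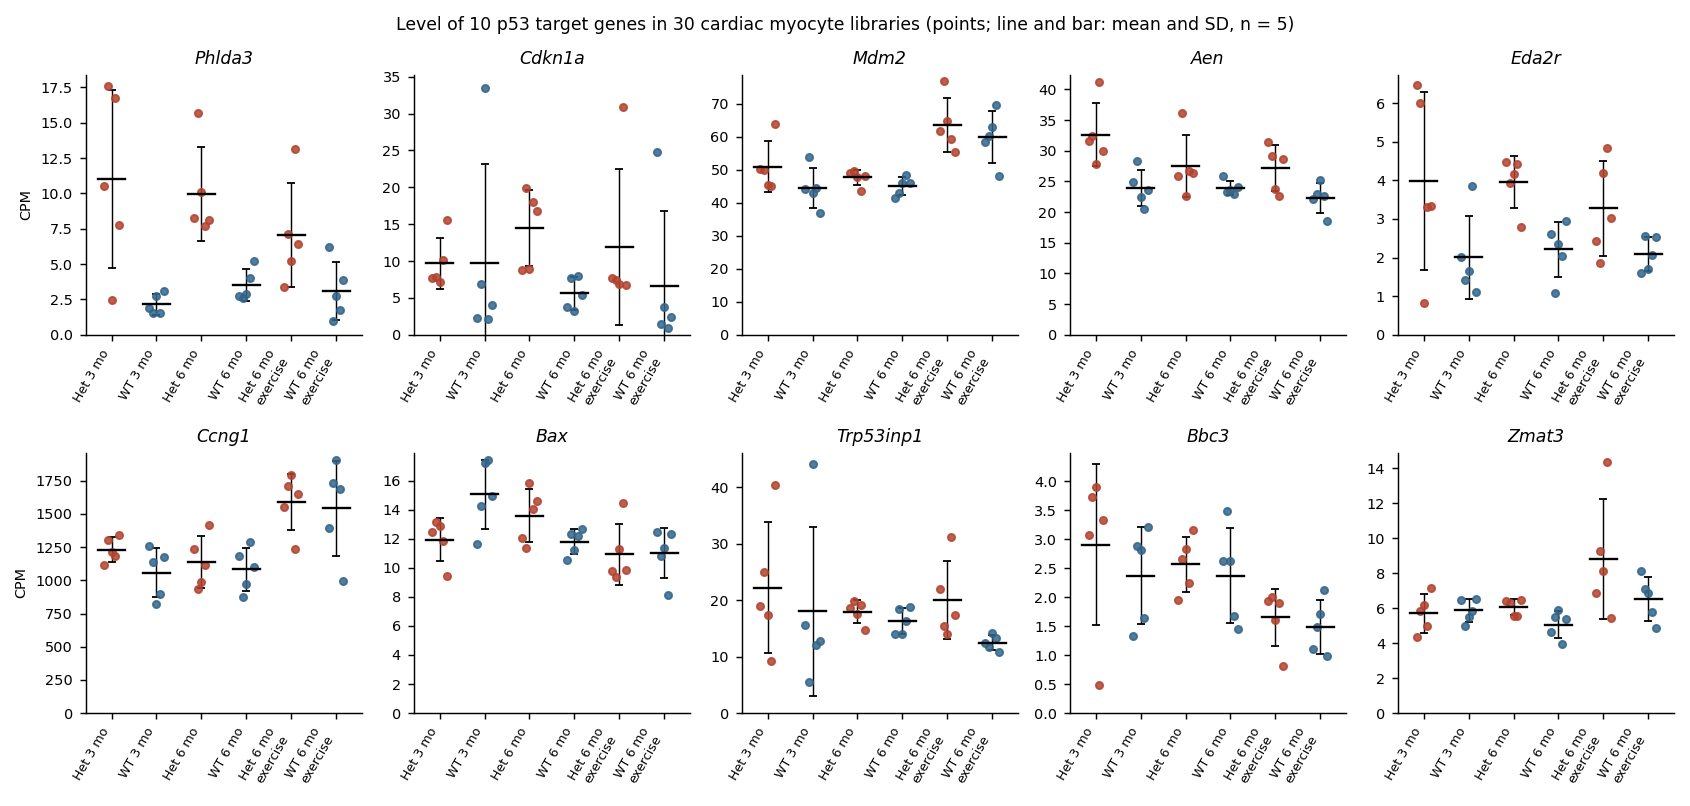
CPM of each member in every library (points), with heterozygotes left of wild type at each age and activity, and the mean with SD as a bar (n = 5); SD bars that would run below 0 are not drawn below it. Phlda3 is at 7.72 to 15.7 CPM in 6-month heterozygotes, above 2.59 to 5.23 CPM in wild type, and single libraries stand far above their group for Cdkn1a and Trp53inp1.

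Genotype at 6 months with regular activity used other libraries than those in which Phlda3, Aen and Eda2r were noted. The members were still chosen with earlier results of these data known. Phlda3 had 8.26, 15.7, 10.1, 7.72 and 8.12 CPM in heterozygotes, against 2.72, 2.59, 2.90, 4.02 and 5.23 CPM in wild type. Every heterozygote lay above every wild type. Heterozygotes averaged 9.98 ± 3.34 CPM and wild types 3.49 ± 1.13 CPM (SD, n = 5 each), a log2 fold change of 1.52 (SE 0.430, 95% interval 0.63 to 2.40), but the gene was not called over all genes (edgeR adjusted p = 0.247). Cdkn1a, whose product p21 stops cell-cycle progression, had 8.85, 19.8, 8.98, 18.0 and 16.8 CPM in heterozygotes, against 3.77, 7.76, 3.18, 7.99 and 5.38 CPM in wild type. Its groups did not overlap either, with heterozygotes 2, 4 and 5 well above heterozygotes 1 and 3. On the log2 scale the fold change was 1.37 (SE 0.761, 95% interval -0.20 to 2.94; edgeR adjusted p = 0.641), in a fit that shares 1 estimate of spread with the groups in which single libraries of Cdkn1a stood apart.

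Eda2r had 4.49, 3.92, 4.16, 4.41 and 2.80 CPM in heterozygotes, against 2.62, 1.09, 2.35, 2.04 and 2.96 CPM in wild type. Only heterozygote 5 and wild type 5 overlapped. The log2 fold change was 0.84 (SE 0.375; edgeR adjusted p = 0.530). The remaining 7 members had smaller values, with log2 fold changes of 0.26 for Zmat3, 0.20 for Aen, 0.20 for Bax, 0.14 for Trp53inp1, 0.11 for Bbc3, 0.083 for Mdm2 and 0.074 for Ccng1. The interval was -0.14 to 0.31 for Mdm2 and -0.23 to 0.38 for Ccng1.

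All 10 members thus had a positive log2 fold change at 6 months, with a median of 0.20 beside -0.0035 over all genes, of which 49.5% were positive. None of the 10 was called, where 0.135% of all genes were called in either direction and 0.0321% as higher; 2 members, Phlda3 and Eda2r, had an unadjusted p under 0.05, as did 8.79% of all genes. For 2 of 10, Phlda3 and Cdkn1a, all heterozygotes lay above all wild types, against 1.86% of all genes. The call on Phlda3 depended on the test. The DESeq2 Wald test gave an adjusted p of 0.0433, limma-voom with quality weights 0.0249 and an edgeR fit of these 2 groups alone 0.00662, and adjusted p ran from 0.00662 to 0.593 over its alternatives. Cdkn1a was called by limma-voom (adjusted p = 0.0391) and by the fit of its own groups in edgeR (adjusted p = 0.0463), with a range of 0.0391 to 0.942. Those settings also called more genes in all, 62 of 15587 with DESeq2, 476 with limma-voom and 218 of 14450 in the fit of 2 groups.

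Markers of other cell types moved with this comparison. The 10 macrophage markers summed to 52.6 to 106 CPM in heterozygotes and 18.6 to 35.9 CPM in wild type, with 9 of 9 tested markers higher and none at 0 in either group. The 10 fibroblast markers summed to 371 to 549 CPM in heterozygotes and 212 to 297 CPM in wild type, with 9 of 10 higher and none at 0. All 10 endothelial markers were higher as well, with sums of 414 to 865 CPM in heterozygotes and 378 to 559 CPM in wild type, and so were 6 of 7 mural markers; none of these 4 lists held a called gene. Other lists went mostly the other way. Of tested markers, 4 of 12 myocyte, 1 of 5 adipocyte and 0 of 5 erythroid ones were higher, with median log2 fold changes of -0.14, -0.78 and -1.27. The 1 tested lymphoid marker was higher, and none of these was called. The part of other cells in the 6-month values was not tested, and in such bulk samples fewer cells of a type and less RNA per cell cannot be told apart. Leaving out wild types 2 and 5, which held Xist and Y-linked transcripts together, gave log2 fold changes of 1.63 for Phlda3 (edgeR adjusted p = 0.593), 1.54 for Cdkn1a and 0.76 for Eda2r.

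**Figure D3:**
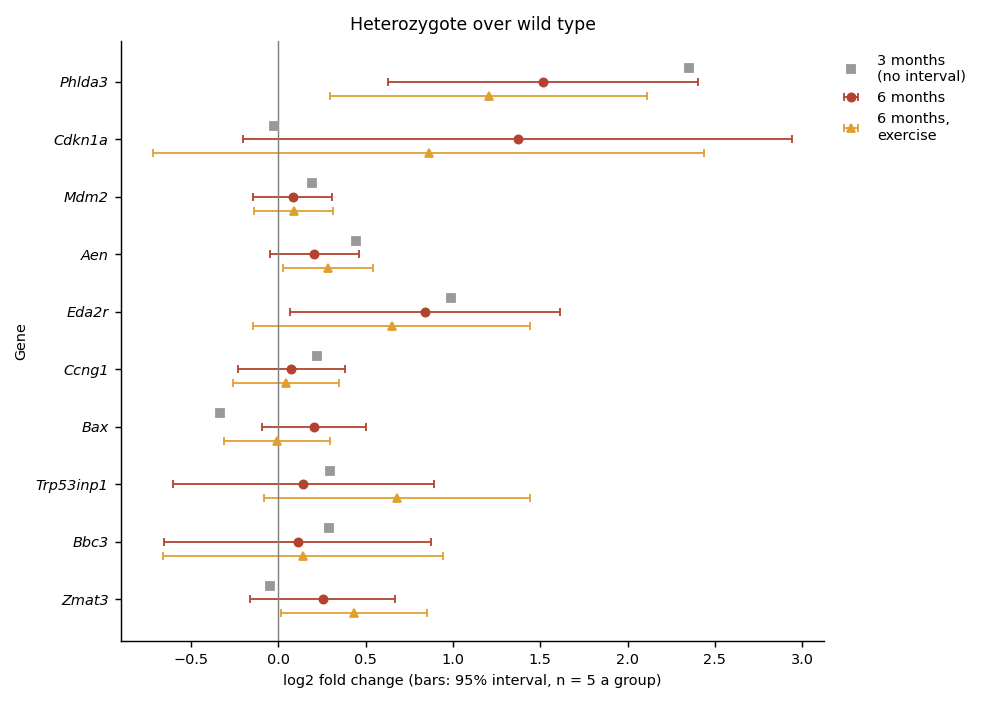
Log2 fold change of heterozygotes over wild type for each member at 3 months (squares, no interval because this contrast chose members), at 6 months with regular activity (circles) and at 6 months with exercise (triangles), with 95% intervals for both 6-month series. Phlda3 lies highest in all 3 series, at 2.35, 1.52 and 1.20, and Mdm2 and Ccng1 lie close to 0 at 6 months.

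With exercise the genotype difference of Phlda3 was smaller and the groups overlapped. Exercised heterozygotes had 3.35, 7.12, 5.24, 13.1 and 6.43 CPM, against 6.18, 0.948, 2.73, 1.76 and 3.90 CPM in exercised wild types. Heterozygote 4 was the highest of the 10 and wild type 1 lay within the heterozygote range. The difference was a log2 fold change of 1.20 (SE 0.439, 95% interval 0.30 to 2.11; edgeR adjusted p = 0.297). It ranged from 0.85 without heterozygote 4 to 1.60 without wild type 1.

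Those same libraries carried the highest Cdkn1a of their groups. Exercised heterozygotes had 7.70, 7.47, 6.92, 30.9 and 6.72 CPM of Cdkn1a, against 24.8, 1.42, 3.81, 0.906 and 2.37 CPM in exercised wild types. Apart from wild type 1, every heterozygote lay above every wild type. The log2 fold change of 0.86 (SE 0.765; edgeR adjusted p = 0.809) became 2.48 without wild type 1, 0.13 without heterozygote 4 and 1.77 without both. Exercised heterozygote 4 also had the highest marker sums, 773 CPM for fibroblasts and 129 CPM for macrophages, against 113 to 196 and 17.9 to 35.9 CPM in the other exercised heterozygotes. Exercised wild type 1 had 339 and 70.2 CPM of these sums, against 107 to 200 and 15.2 to 33.1 CPM in the other exercised wild types, and 46.9% mitochondrial counts; its endothelial markers summed to 1284 CPM, against 301 to 475 CPM in the others. The part of these differences in the Cdkn1a and Phlda3 values was not tested.

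Of the 10 members, 0 were called between exercised heterozygotes and exercised wild type, where 0.404% of all genes were called, 0.225% as higher. Unadjusted p was under 0.05 for 3, Phlda3, Aen and Zmat3, as for 9.78% of all genes. Aen had a log2 fold change of 0.28 (SE 0.125; edgeR adjusted p = 0.431) and Zmat3 0.43 (SE 0.202; edgeR adjusted p = 0.473). Trp53inp1 stood at 0.68 (SE 0.369), Eda2r at 0.65 (SE 0.384), Bbc3 at 0.14, Mdm2 at 0.088, Ccng1 at 0.043 and Bax at -0.0079. In all, 9 of 10 were positive, with a median of 0.36 beside -0.0081 over all genes, and for 0 of 10 were the groups free of overlap, against 1.01% of all genes in the higher direction.

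Exercise was set against regular activity within each genotype, and Mdm2 and Ccng1 rose in both. Exercised heterozygotes had 61.7, 76.9, 64.8, 59.3 and 55.5 CPM of Mdm2, against 49.2, 49.6, 47.8, 43.7 and 48.2 CPM in heterozygotes with regular activity. Every exercised heterozygote lay above every one with regular activity, as for 5.1% of all genes. On the log2 scale the fold change was 0.42 (SE 0.110; edgeR adjusted p = 0.0141). Exercised wild types had 58.5, 60.2, 62.9, 69.7 and 48.0 CPM of Mdm2, against 41.5, 43.1, 45.9, 48.4 and 46.1 CPM in wild types with regular activity, and only exercised wild type 5 lay in the range of the other group; 5.04% of all genes had no overlap in the higher direction. The log2 fold change was 0.41 (SE 0.110; edgeR adjusted p = 0.0136).

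Ccng1 had 1554, 1709.7, 1792, 1239.6 and 1653 CPM in exercised heterozygotes, against 1237, 937, 986, 1116 and 1418 CPM in heterozygotes with regular activity. Exercised heterozygote 4 was the only exercised one inside the range of the others. The difference was a log2 fold change of 0.48 (SE 0.148; edgeR adjusted p = 0.0360). Wild types averaged 1543 ± 358 CPM with exercise and 1082 ± 165 CPM with regular activity (SD, n = 5 each), and exercised wild type 5, at 994 CPM, lay below 3 of the 5 libraries with regular activity. On the log2 scale the fold change was 0.51 (SE 0.148; edgeR adjusted p = 0.0232).

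These 2 of 10 calls in each genotype, both higher, stood beside 8.82% of all genes called with exercise in heterozygotes (5.34% higher) and 9.69% in wild type (4.64% higher). With each library left out in turn, Mdm2 was called in 9 of 10 fits in heterozygotes, the exception being without exercised heterozygote 2 (log2 fold change 0.30; edgeR adjusted p = 0.107), and in 10 of 10 in wild type. Ccng1 was called in 3 of 10 in heterozygotes and 5 of 10 in wild type, with adjusted p up to 0.128 and 0.0847. With no low-count filter Mdm2 missed the threshold in heterozygotes (edgeR adjusted p = 0.0775) and in wild type (0.0609), and Ccng1 missed it in heterozygotes (0.0878). Ccng1 also missed it in heterozygotes with the replicate number as a block (0.0583) and in the fit of 2 groups in both genotypes (0.0570 and 0.0560). Without wild types 2 and 5 together both calls in wild type were lost, at a log2 fold change of 0.40 for Mdm2 (edgeR adjusted p = 0.0885) and 0.43 for Ccng1 (edgeR adjusted p = 0.182). The exercised libraries differ from the others in spike-in rows and mitochondrial share as well, and this cannot be told apart from exercise. Cell type markers moved too. Of 12 myocyte markers 10 were higher in heterozygotes and 8 in wild type, with 2 called in each, and 9 of 10 fibroblast markers were lower in both, with 0 called in heterozygotes and 1 in wild type. Endothelial markers were lower for 9 of 10 in heterozygotes and higher for 8 of 10 in wild type, with none called. Their part in the values of the members was not tested.

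The other 8 members were not called with exercise. Zmat3 had a log2 fold change of 0.55 in heterozygotes (SE 0.201; edgeR adjusted p = 0.0866) and 0.37 in wild type (SE 0.202; edgeR adjusted p = 0.287), with the highest library, exercised heterozygote 4, at 14.4 CPM. Bbc3 had -0.63 in heterozygotes (SE 0.380; edgeR adjusted p = 0.348) and -0.66 in wild type (SE 0.380; edgeR adjusted p = 0.312), from means of 1.65 and 1.49 CPM with exercise against 2.57 and 2.37 CPM with regular activity. Bax had -0.31 in heterozygotes (SE 0.146; edgeR adjusted p = 0.197) and -0.10 in wild type; its call appeared without exercised heterozygote 4 and wild type 1, at -0.46 (edgeR adjusted p = 0.0461, range over its alternatives 0.0289 to 0.324). Phlda3 had -0.49 in heterozygotes (95% interval -1.36 to 0.37) and -0.18 in wild type (-1.09 to 0.72). Median log2 fold changes over the members were -0.15 in heterozygotes and -0.090 in wild type, beside -0.0037 and 0.0059 over all genes.

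**Figure D4:**
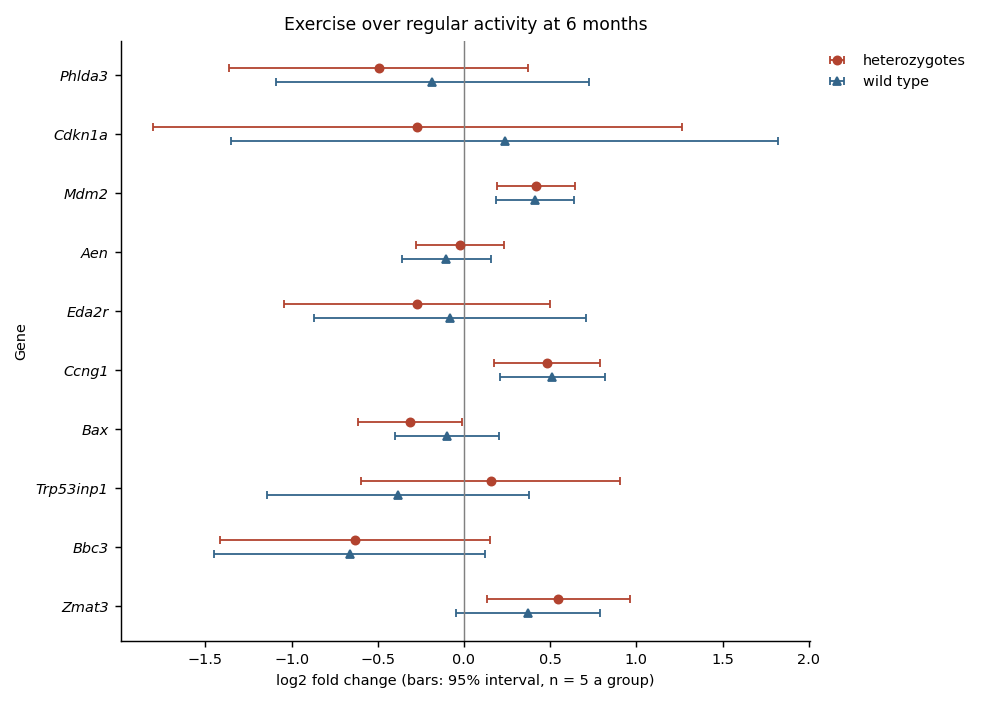
Log2 fold change of exercise over regular activity at 6 months in heterozygotes (circles) and wild type (triangles), with 95% intervals. Mdm2 lies at 0.42 and 0.41 and Ccng1 at 0.48 and 0.51, with intervals above 0 in both genotypes, while intervals of Phlda3, Cdkn1a and Eda2r span 0.

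The effect of exercise was also compared between the genotypes directly. For the interaction, 0 of 10 members were called, where 0.0128% of all genes were, and 0 had an unadjusted p under 0.05, as 4.91% of all genes did. The difference of the exercise effect in heterozygotes from that in wild type was 0.0047 for Mdm2 (95% interval -0.32 to 0.32), -0.031 for Ccng1 (-0.46 to 0.40) and -0.31 for Phlda3 (-1.57 to 0.94). All 4 groups enter this value, so it is not independent of the genotype comparisons above. The interval of Phlda3 covers both a loss of its genotype difference with exercise and a gain.

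With age, given as a description because it uses the 3-month libraries, Phlda3 had a log2 fold change of -0.14 (SE 0.416) in heterozygotes and stood at 0.70 (SE 0.448) in wild type. Cdkn1a had 0.59 (SE 0.749) in heterozygotes and -0.81 (SE 0.761) in wild type, the second set by wild type 3 at 3 months. Bax had 0.18 (SE 0.145) in heterozygotes and -0.35 (SE 0.145) in wild type. The median over the members was -0.10 in heterozygotes and -0.0016 in wild type. Spike-in rows separate the ages too, and this cannot be told apart from age.

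Among the factors that set p53 activity, Trp53, which encodes p53, was called in none of the tested comparisons. It averaged 11.1 ± 2.37 CPM in 6-month heterozygotes and 9.92 ± 1.45 CPM in wild type (log2 fold change 0.16; edgeR adjusted p = 0.877). With exercise it averaged 11.2 ± 1.77 CPM in heterozygotes and 11.7 ± 3.62 CPM in wild type (log2 fold change -0.059; edgeR adjusted p = 0.965), and its groups overlapped in both. RNA levels of Trp53 do not measure the protein, which is controlled mainly by its stability. Of 25 listed regulators of p53, 23 were tested, and Trp73 and Cdkn2a were below the count filter with at most 9 and 7 counts in a library. None was called between genotypes, with median log2 fold changes of 0.051 at 6 months and -0.11 with exercise. Hipk2, a kinase that phosphorylates p53, rose with exercise by a log2 fold change of 0.52 in heterozygotes (edgeR adjusted p = 0.00666) and 0.51 in wild type (edgeR adjusted p = 0.00827). In wild type Ep300, an acetyltransferase that acts on p53, rose by 0.51 (edgeR adjusted p = 0.00910), and so did Rpl23, a ribosomal protein that binds Mdm2, by 0.40 (edgeR adjusted p = 0.0412), though Rpl23 has near-identical copies that can share its reads. These calls, 1 of 23 in heterozygotes and 3 of 23 in wild type, stood beside 8.82% and 9.69% of all genes called with exercise. Called or not, 13 of 23 were higher with exercise in heterozygotes, with a median of 0.015, and 20 of 23 in wild type, with a median of 0.13. Over all genes 49.6% and 50.7% were higher.

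A list of 41 other p53 targets was set beside the members, and 37 were tested; Pmaip1, Spata18, Psrc1 and Sco2 were below the filter. Between genotypes at 6 months 0 were called, and 17 were higher and 20 lower with a median log2 fold change of -0.0090, beside -0.0035 over all genes. The smallest p values belonged to Gdf15, a stress-induced cytokine, at 1.88 (edgeR adjusted p = 0.315), Btg2, an antiproliferative gene, at -0.52 (0.378) and Ak1, adenylate kinase, at -0.34 (0.435). Gdf15 had 3.27 to 24.6 CPM with a median of 12.7 in heterozygotes and 1.78 to 5.73 CPM with a median of 2.83 in wild type, so the groups overlapped. For Btg2 every heterozygote, at 230 to 313 CPM, lay below every wild type, at 349 to 465 CPM, and for Ak1 likewise, at 859 to 989 CPM in heterozygotes and 1028 to 1258 CPM in wild type, as for 2.16% of all genes in the lower direction.

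Between exercised genotypes 0 of the 37 were called, 18 were higher and 19 lower, and the median was -0.022. Abhd4 had 0.53 (edgeR adjusted p = 0.0995), Gadd45a, a growth arrest and DNA repair gene, -0.997 (0.114), and Tigar, which lowers glycolytic flux, 0.64 (0.133). Tigar had 53.7 to 72.3 CPM in exercised heterozygotes and 30.8 to 69.8 CPM in exercised wild type, and it was called without exercised wild type 5. With exercise Rrm2b, the p53-inducible subunit of ribonucleotide reductase, rose by 0.51 in heterozygotes (edgeR adjusted p = 0.0119) and 0.58 in wild type (0.00432). Btg2 fell by 0.94 in heterozygotes (edgeR adjusted p = 0.00166) and by 1.10 in wild type (0.000267), and Trp53i11 fell by 1.24 (0.000994) and 0.80 (0.0259). In total 1 of 37 was called as higher and 2 as lower in heterozygotes, and 1 as higher and 3 as lower in wild type. These 3 of 37 and 4 of 37 are close to the 8.82% and 9.69% of all genes called. Called or not, 14 were higher and 23 lower in heterozygotes, with a median of -0.10. In wild type 12 were higher and 25 lower, with a median of -0.16. Over all genes these medians were -0.0037 and 0.0059. The interaction called 0 of 37, with the smallest p for Tigar (difference 1.001; edgeR adjusted p = 0.449). At 3 months 24 were higher and 13 lower, with a median of 0.10.

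Cell-cycle genes that p21 represses through the DREAM complex numbered 25, of which 17 were tested; Ccnb1, Ccnb2, Plk1, Aurkb, Bub1, Birc5, Cdc25c and Mybl2 were below the filter. None was called between genotypes; 14 of 17 were higher at 6 months with a median log2 fold change of 0.22, and 9 of 17 with exercise with a median of 0.0074. With exercise in heterozygotes Cenpa, the centromeric histone H3 variant, fell by 0.88 (edgeR adjusted p = 0.00243), and all 17 were negative with a median of -0.56. In wild type Mcm2, a subunit of the replicative helicase, fell by 0.96 (edgeR adjusted p = 0.0205), with 12 of 17 negative and a median of -0.31. Over all genes the medians with exercise were -0.0037 in heterozygotes and 0.0059 in wild type. The 1 of 17 called in each genotype stood beside 8.82% and 9.69% of all genes called. In exercised heterozygotes 9 of 10 fibroblast, 9 of 9 macrophage and 9 of 10 endothelial markers were lower as well, with none called. In exercised wild type the counts were 9 of 10 with 1 called, 4 of 9 and 2 of 10, and the markers' part in these values was not tested.

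Within groups the members varied largely apart from each other. Over deviations from the group means in 30 libraries, the 45 pairs of members had a median Pearson r of 0.042, and 26 were positive. Phlda3 and Cdkn1a formed the pair with the highest r, 0.50, and Aen and Bax the one with the lowest, -0.53. Among the 11188 genes compared, those most like Phlda3 by this measure were Mcm3 (r = 0.78), a subunit of the replicative helicase, Igf1 (0.78), insulin-like growth factor 1, Ephx1 (0.76), a microsomal epoxide hydrolase that is also in the list of other p53 targets, Lrrc8a (0.70), a subunit of volume-regulated anion channels, and Ptpn1 (0.69), a protein tyrosine phosphatase. Within the 3-month, 6-month and exercised sets of 10 libraries, r was 0.84, 0.46 and 0.85 for Mcm3, 0.72, 0.56 and 0.89 for Igf1 and 0.80, 0.50 and 0.91 for Ephx1. Without the 2 libraries farthest from the median of Phlda3, heterozygote 3 at 3 months and exercised wild type 2, these 3 values over all libraries were 0.69, 0.69 and 0.68. Cdkn1a ranked 225 and Eda2r 863 of 11188 in likeness to Phlda3. These genes share libraries, depth and composition, so the values are a description.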

How the data were processed

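Libraries were depleted of ribosomal RNA, stranded, paired-end and made with a TruSeq kit, per the labels' protocols. The authors deposited raw counts per gene for all 30 libraries in 1 table of 52550 genes and 23 spike-in rows, which were left out. Tools named in the submitters' processing notes are Trim Galore, HISAT2 and featureCounts, with the build mm10. Versions, the annotation release and the strand setting are not given in the sources used here. No replicate pair agreed within sampling noise.

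The counts of 15587 genes that passed filterByExpr were tested in R 4.3.3 with edgeR 4.0.16, by the quasi-likelihood F test with TMM scaling, robust fitting, 6 groups and 24 residual degrees of freedom. P-values were adjusted over all genes by the Benjamini-Hochberg method and called under 0.05. The SE is the absolute log2 fold change over the root of F, and 95% intervals take 24 degrees of freedom. RPKM uses union exon lengths from GENCODE release M21, and log2 CPM a prior count of 2. Likeness was computed over genes whose log2 CPM averaged 1 or more. Precision is limited by 5 libraries per group and, for low members, by counts, which were 16 to 385 per library for Phlda3, 13 to 168 for Eda2r and 7 to 80 for Bbc3. The test was checked on simulated counts.

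The members and gene lists were chosen with earlier results of these data known. Named are all members, Trp53 and Dsp, each called gene of the p53 target, regulator and cell-cycle lists, up to 3 with the smallest p where none was called, and the 5 genes most like Phlda3; not every gene this rule takes is printed, and 1 called gene is counted but not reported here. The alternatives were size factors from DESeq2, dropping the filter, the replicate number as a block, leaving out mitochondrial and the 10 most abundant genes, Xist as a covariate, fitting only the groups compared, limma-voom (limma 3.58.1) with sample weights, the Wald test of DESeq2 1.42.0, a threshold of 0.01 and leaving out each library. Leaving out 6-month wild types 2 and 5 together, and exercised wild type 1 with heterozygote 4, was chosen after seeing the data.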

Additional observations from a re-analysis of the deposited data

Results flagged for a closer look

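In 6 of the 60 group and member combinations, each of 5 libraries, the highest or lowest library stood far from the others by Dixon's criterion. Chance alone meets it in about 1 of 20 groups if values are normally distributed, which was not checked for CPM. The combinations also share libraries, so 6 of 60 is a description. Cdkn1a did so in 3 groups. Wild type 3 at 3 months had 33.4 CPM, against 2.14 to 6.88 in the other wild types of that age. Exercised heterozygote 4 had 30.9 CPM, against 6.72 to 7.70, and exercised wild type 1 had 24.8 CPM, against 0.906 to 3.81.

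Trp53inp1 was at 44.0 CPM in wild type 3 at 3 months, the library that was also high for Cdkn1a, against 5.52 to 15.5 in the other 4. Mdm2 was at 64.0 CPM in heterozygote 5 at 3 months, against 45.1 to 50.1. Bbc3 was low in heterozygote 4 at 3 months, at 0.482 CPM from 7 counts, against 3.08 to 3.91 CPM.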

How the results depend on the processing

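The replicate numbers are not said to pair libraries, and over 25 pairs of same-numbered libraries the deviations had r from -0.252 to 0.154, with 3 above 0.1. With the replicate number as a block, members called with exercise in heterozygotes fell to 1, since Ccng1 missed the threshold (log2 fold change 0.48; edgeR adjusted p = 0.0583), and no other count of called members changed; over all genes the calls were 11, 42, 1193, 1339 and 0 in genotype at 6 months, genotype with exercise, exercise in heterozygotes, exercise in wild type and the interaction, against 21, 63, 1375, 1511 and 2 without it. The Bbc3 interaction became -0.011 with the block.

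Members called between genotypes at 6 months were 1 with DESeq2 and 2 with limma-voom or the fit of 2 groups, against 0. With exercise in heterozygotes they were 0 at a threshold of 0.01 or with no low-count filter, 1 in the fit of 2 groups and 4 with limma-voom, and 0 to 2 with 1 library left out, against 2. In wild type they were 0 at 0.01 or without wild types 2 and 5, 1 with no filter or in the fit of 2 groups, and 1 to 2 with 1 library left out, against 2. Other p53 targets called with exercise in heterozygotes were 6 with DESeq2, 7 with limma-voom, 5 without exercised heterozygote 4 and wild type 1, and 2 to 5 with 1 library left out, against 3. In wild type they were 2 at 0.01, with no filter or without wild types 2 and 5, and 2 to 4 with 1 library left out, against 4. Between exercised genotypes they were 2 with DESeq2 or limma-voom and 0 to 1 with 1 library left out, between genotypes at 6 months 1 with limma-voom or the fit of 2 groups, and in the interaction 1 with limma-voom and 0 to 1 with 1 library left out, against 0 in each.

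Some values changed sign, among them those of Cdkn1a, -0.51 for the interaction and 0.24 with exercise in wild type, and the interaction of Phlda3, -0.31. Without exercised heterozygote 4 and wild type 1, exercise in heterozygotes gave 0.010 for Aen and -0.091 for Trp53inp1, exercise in wild type gave -1.41 for Cdkn1a, genotype with exercise gave -0.0016 for Bbc3, and the interaction gave -0.14 for Bbc3, 0.37 for Cdkn1a, -0.0057 for Mdm2 and -0.010 for Zmat3. With limma-voom the same effects were 0.023 for Aen, -0.092 for Trp53inp1, -1.27 for Cdkn1a and -0.0014 for Bbc3, and the interaction was -0.047 for Bbc3, 0.43 for Cdkn1a and 0.086 for Phlda3. Without wild types 2 and 5 the interaction was -0.0057 for Bbc3 and 0.051 for Ccng1, and Ccng1 had -0.012 between genotypes at 6 months. The interaction of Mdm2 was -0.033 with DESeq2 size factors, -0.033 with DESeq2, -0.025 without abundant genes and -0.0075 with no filter, and that of Bbc3 -0.0048 and -0.0056 with DESeq2 size factors and DESeq2. The cause of these changes was not tested.

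With 1 library left out, exercise in heterozygotes ranged from -0.12 to 0.095 for Aen and -0.065 to 0.22 for Trp53inp1. Exercise in wild type ranged from -1.41 to 0.54 for Cdkn1a, -0.25 to 0.044 for Eda2r and -0.60 to 0.055 for Phlda3. Genotype with exercise ranged from -0.13 to 0.030 for Bax, -0.091 to 0.12 for Ccng1 and -0.0016 to 0.13 for Mdm2, and genotype at 6 months from -0.024 to 0.29 for Bbc3. The interaction ranged from -0.021 to 0.20 for Aen, -0.14 to 0.17 for Bbc3, -0.19 to 0.047 for Ccng1, -1.24 to 1.09 for Cdkn1a, -0.11 to 0.033 for Mdm2, -0.66 to 0.063 for Phlda3 and -0.071 to 0.26 for Zmat3. At 3 months the median over the members ranged from 0.14 to 0.39. Counts of 7 to 80 for Bbc3, the lowest member, limit what could be detected.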

Other observations

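The 3 libraries with the high Cdkn1a values shared some and differed in other levels of the remaining members. Wild type 3 at 3 months, at 33.4 CPM of Cdkn1a, had 2.75 CPM of Phlda3 and 1.66 CPM of Eda2r, both within the range of its group. Exercised heterozygote 4, at 30.9 CPM of Cdkn1a, had the highest Phlda3 (13.1 CPM), Eda2r (4.85 CPM), Bax (14.4 CPM), Trp53inp1 (31.2 CPM) and Zmat3 (14.4 CPM) of its group, but the lowest Aen (22.6 CPM) and Ccng1 (1239.6 CPM). Exercised wild type 1, at 24.8 CPM of Cdkn1a, had the highest Phlda3 (6.18 CPM), Bax (12.5 CPM) and Zmat3 (8.12 CPM) of its group, as exercised heterozygote 4 did of its own, and the lowest Eda2r (1.60 CPM). These values were chosen after they were seen, and their cause was not tested.

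Igf1, one of the genes most like Phlda3 within groups, also differed between genotypes without overlap at 6 months, with 4.74 to 6.52 CPM in heterozygotes and 1.74 to 3.78 CPM in wild type, but it was not called (log2 fold change 1.06, edgeR adjusted p = 0.412). Mcm3, the gene most like Phlda3 within groups, had a log2 fold change of -0.23 in the same comparison (edgeR adjusted p = 0.923). Ephx1 had 0.69 at 6 months (edgeR adjusted p = 0.561) and 0.87 with exercise (edgeR adjusted p = 0.323).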
